A study of Mus musculus with 25 samples.

Results

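The step that thymocytes make between 3 and 24 hr after anti-CD3ε was compared between WNK1-deficient and control mice, by taking the change of each gene (24 hr minus 3 hr) in WNK1-deficient thymocytes and subtracting the change in control thymocytes. This difference of differences is called the interaction here, and a positive value means that the gene moved up more, or down less, without WNK1. It was computed for the 14141 of 48795 genes whose mean value over all 25 libraries was at least 10. Its value rests on 12 of the 25 libraries, while the spread used to test it was estimated from all 25. The question is which parts of the response to a pre-TCR-like signal ran differently without the kinase once the first hours had passed. The test was limma on log2(value + 1), and a gene passed, or was called, at a Benjamini-Hochberg adjusted p of at most 0.05 over all genes tested. The interaction passed for 17 genes (0.12% of those tested) in the higher direction and for 23 genes (0.163%) in the lower one.

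WNK1 is a serine/threonine kinase known for control of ion transport and cell volume, and in T cells for effects on adhesion and migration. DN3 thymocytes wait at the β-selection checkpoint until a pre-TCR signal starts their proliferation, ends the DN3 programme (Notch targets, the RAG recombinase, pre-Tα) and moves them towards the CD4+CD8+ stage. In the first hours such a signal switches on immediate-early genes, cytokines and growth genes, and these decline while genes of DNA replication and mitosis rise. Rag1-deficient thymocytes cannot build a pre-TCR, and an antibody against the CD3ε chains on their surface takes the place of its signal.

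WNK1-deficient thymocytes came from Wnk1fl/fl;CD2Cre;Rag1KO mice taken at 24 hr (3 libraries) and at 3 hr (3 libraries), and control thymocytes from Wnk1fl/+;CD2Cre;Rag1KO mice at 24 hr (3 libraries) and 3 hr (3 libraries). All mice were 7 to 8 weeks old, had received 150 µg of anti-CD3ε and belonged to a single experiment, with 1 mouse per library. CD2-Cre deletes in lymphoid cells, the control mice keep an intact *Wnk1* allele beside a deleted one, and no group has a wild-type *Rag1*. Cells were sorted as Thy1.2+CD44-, a gate that spans DN3 and DN4 thymocytes, and the gate itself selects on the product of *Thy1*. The values are reads per gene scaled by a size factor for each library (normalized reads).

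Depth was 22.5 M to 48.6 M reads over the 12 libraries, and replicate mice differed by more than counting error. *Wnk1* itself (chromosome 6, 119923969 to 120038695 of GRCm38) had 3056, 3170.3 and 3535 at 24 hr and 6918, 7125 and 6659 at 3 hr in WNK1-deficient thymocytes, against 7281, 5433 and 6286 at 24 hr and 10068, 20719 and 12394 at 3 hr in control thymocytes. WNK1-deficient libraries were below control libraries at both times without overlap, although reads from exons outside the deleted part still count, and the interaction of *Wnk1* was 0.04. The number after L in the library names, 3 or 4, was read as the sequencing lane, which the labels do not say in words. Lane 4 held 1 of 3 WNK1-deficient libraries at 24 hr and 3 of 3 at 3 hr. In control thymocytes it held 2 of 3 at 24 hr and 1 of 3 at 3 hr. Lane is therefore mixed with the interaction, and a difference of lane 4 from lane 3 enters it with a weight of -1. The part of lane is given as values with lane in the fit. Control replicate 3 at 24 hr stood apart from its group: *Ptcra*, which encodes pre-Tα and is shut off after the signal, was at 59.2, 115 and 2344 in the 3 control libraries at 24 hr. Results that rest on this library are given with and without it. It was in lane 3 and the other control libraries at 24 hr were in lane 4, so a fit with lane is no separate check on this library. T-lineage genes marked every library, *Lck* at 23343 to 26628 (24 hr) and 36879 to 48146 (3 hr) in WNK1-deficient thymocytes and 43474 to 53391 (24 hr) and 48353 to 64967 (3 hr) in control thymocytes, while the B cell genes *Ms4a1* and *Pax5* did not exceed 1.43. The summed level of all 10 B cell markers was 8094 to 8831 (24 hr) and 16939 to 20428 (3 hr) in WNK1-deficient thymocytes and 6157 to 7925 (24 hr) and 7311 to 11738 (3 hr) in control thymocytes, most of it from *Ighm*.

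Both genotypes made most of the step in the same direction. In WNK1-deficient thymocytes 2601 genes (18.4%) rose and 2647 (18.7%) fell between 3 and 24 hr, and in control thymocytes 3009 (21.3%) rose and 3159 (22.3%) fell. Of the 3922 genes that passed in both genotypes, 3911 moved the same way and 11 moved oppositely. Across genes the 2 steps had a Pearson r of 0.75 and a Spearman rho of 0.76, which describes these libraries, since genes are not independent replicates. The median interaction over all genes was 0.01, and its median size was 0.27 on the log2 scale, beside a median standard error of 0.33.

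**Figure D1:**
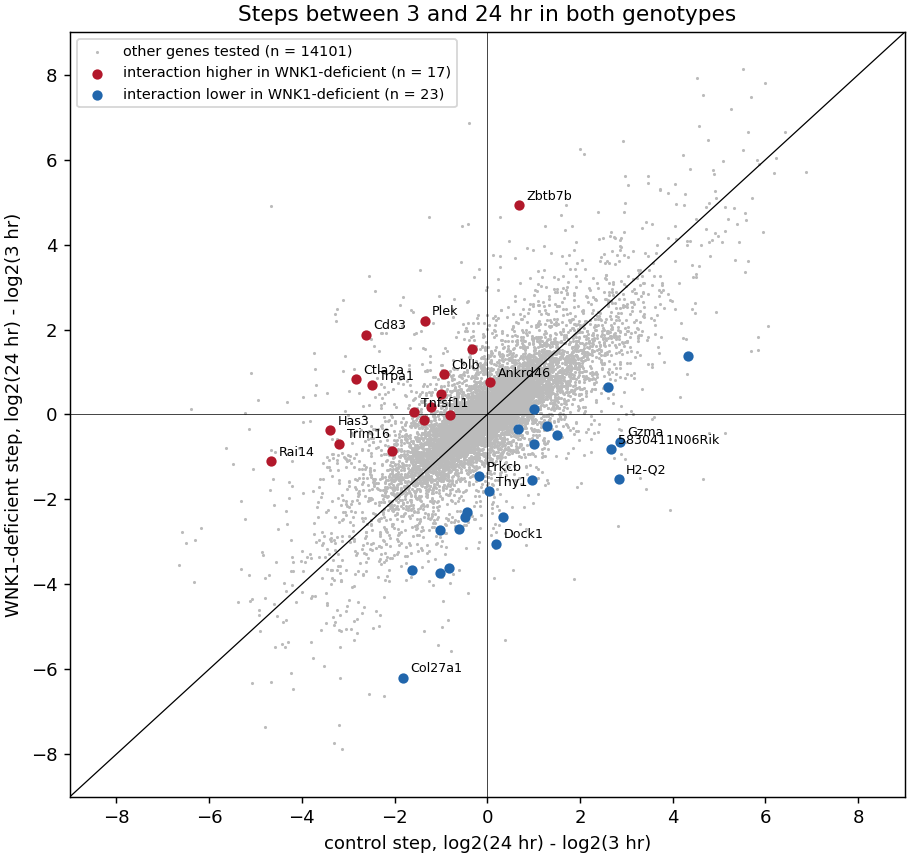
Change between 3 and 24 hr of each of the 14141 genes tested, in WNK1-deficient thymocytes (vertical axis, log2) and in control thymocytes (horizontal axis, log2), with the line of equal steps. The 17 genes with a higher interaction lie above the line and the 23 with a lower interaction below it, while the other genes (grey) scatter along it with r = 0.75.

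The 17 genes with a higher interaction mostly fell in control thymocytes and did not pass in WNK1-deficient thymocytes. That was so for 10 genes, 3 rose without WNK1 and fell in control thymocytes, 3 rose without WNK1 and did not pass in control thymocytes, and 1 fell in both. Over the 12 libraries, 12 of the 17 had a mean of at least 100 normalized reads.

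*Cd83*, which encodes an immunoglobulin-superfamily protein that activated lymphocytes and dendritic cells put on their surface, lies on chromosome 13, 43785112 to 43803133 of GRCm38 (RefSeq annotation). It had 196, 261 and 122 at 24 hr and 59.6, 38.6 and 51.8 at 3 hr in WNK1-deficient thymocytes, against 4.93, 1.66 and 6.42 at 24 hr and 35.3, 29.7 and 23.04 at 3 hr in control thymocytes. The WNK1-deficient libraries at 24 hr were the highest and the control libraries at 24 hr the lowest, and none of the 4 groups overlapped. *Cd83* rose by 1.88 on the log2 scale without WNK1 and fell by 2.61 in control thymocytes, an interaction of 4.49 (SE 0.55, adjusted p = 0.000961), and it passed in all 12 fits that left out 1 library.

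Because *Cd83* is also a marker of dendritic cells, the markers of those cells were read in the same libraries. The summed level of 14 dendritic cell markers was 2785 to 4456 in WNK1-deficient thymocytes at 24 hr and 3094 to 4443 at 3 hr, against 959 to 1490.5 in control thymocytes at 24 hr and 1463 to 2133 at 3 hr, most of it from *Cd74* and other class II genes. The defining markers *Xcr1*, *Clec9a* and *Siglech* did not exceed 4.99 normalized reads in any of the 12 libraries. *Itgax*, which encodes CD11c, was at 232, 237 and 98.3 at 24 hr and 46.4, 28.6 and 102 at 3 hr without WNK1, against 16.4, 64.9 and 18.4 at 24 hr and 13.7, 39.6 and 17.8 at 3 hr in control thymocytes. *Zbtb46*, a dendritic cell factor gene, was at 10.5 to 29.04 (24 hr) and 5.92 to 16.3 (3 hr) without WNK1, against 1.84 to 4.99 (24 hr) and 0 to 2.94 (3 hr) in control thymocytes. For both genes the WNK1-deficient libraries were above the control libraries at 24 hr. Of the 14 markers 6 were tested, with 4 interactions positive and a median of 0.63, none passed, and their part in the *Cd83* result was not tested. In bulk samples, fewer cells of a type and less RNA per cell cannot be told apart.

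*Ctla2a*, the other gene that passed in all 12 fits with 1 library left out, encodes an inhibitor of cathepsin-type proteases and lies on chromosome 13, 60934155 to 60936625. Its levels were 3128, 2615 and 3318 (24 hr) and 1621, 1660.5 and 1779 (3 hr) in WNK1-deficient thymocytes, against 229, 433 and 472 (24 hr) and 1054, 3362 and 4742 (3 hr) in control thymocytes. Control thymocytes at 24 hr were below all other libraries, while control thymocytes at 3 hr spread widely around the WNK1-deficient libraries. The interaction was 3.66 (SE 0.57, adjusted p = 0.0156), and the gene fell by 2.83 in control thymocytes (adjusted p = 2.04e-05), beside a value of 0.83 without WNK1 that did not pass. *Ctla2a* has a close relative, *Ctla2b*, and how reads were divided between such copies can move its level.

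The promoter of *Ctla2a* is shown because the gene passed in all 12 fits with 1 library left out, and no promoter was matched for *Cd83*. *Ctla2a* was also the only one of 25 called genes with a matched promoter in which a searched motif was found. The sequence runs from 250 bases before to 50 after the start (RefSeq, GRCm38.p6, chr13:60936576-60936875, minus strand), with the AP-1 letters TGACTCA in capitals.
Ctla2a promoter: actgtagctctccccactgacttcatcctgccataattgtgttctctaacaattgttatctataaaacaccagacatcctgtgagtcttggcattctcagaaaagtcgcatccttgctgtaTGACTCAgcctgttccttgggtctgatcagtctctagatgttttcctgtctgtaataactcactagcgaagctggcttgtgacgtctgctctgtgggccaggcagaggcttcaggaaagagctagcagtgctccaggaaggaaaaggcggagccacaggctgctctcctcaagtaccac
Promoters were matched by symbol for 9746 genes tested, among them 11 of the higher and 14 of the lower called genes. TGACTCA stood on either strand in 1 of 11 higher (9.09%) and 0 of 14 lower promoters, against 3.31% of all. TGACGTCA (CRE, 3.32% of all), GGACTTTCC (NF-kB, 0.441%), GCGTGGGCG (EGR, 1.31%), TTTGGCGC or TTTCGCGC (E2F, 1.69%) and CACGTG (E-box, 10.3%) were in none of the 25, which says only that these letters are not in these windows.

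*Zbtb7b*, which encodes ThPOK, the factor that sets the CD4 lineage later in the thymus, was named after its values were seen because its mean is under 100. It had 378, 416 and 185 at 24 hr and 8.51, 4.29 and 19.99 at 3 hr in WNK1-deficient thymocytes, against 16.4, 9.98 and 3.67 at 24 hr and 4.91, 5.93 and 4.19 at 3 hr in control thymocytes. Every WNK1-deficient library at 24 hr was far above all the other 9, none of which exceeded 19.99. The rise without WNK1 was 4.92 and the interaction 4.23 (SE 0.89, adjusted p = 0.0443).

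*Plek*, which encodes pleckstrin, a protein kinase C substrate of platelets and leukocytes, had 1506, 1201 and 663 (24 hr) and 399, 151 and 199.9 (3 hr) in WNK1-deficient thymocytes, against 43.6, 56.6 and 51.4 (24 hr) and 109.9, 185 and 107 (3 hr) in control thymocytes. It rose by 2.21 without WNK1 and fell by 1.35 in control thymocytes, with an interaction of 3.56 (SE 0.75, adjusted p = 0.0443). The 3 hr libraries of the genotypes overlapped and the 24 hr libraries did not. The summed level of 14 macrophage and monocyte markers was 2751 to 3027 in WNK1-deficient thymocytes at 24 hr and 1386 to 2082 at 3 hr, against 1249.7 to 2487 in control thymocytes at 24 hr and 1176 to 1492 at 3 hr. *Ctss* made up most of it in WNK1-deficient thymocytes at 24 hr, while *Csf1r*, the defining receptor gene, was at 27.5 to 37.8 there and 56.5 to 96.2 at 3 hr, against 8.22 to 33.3 in control thymocytes at 24 hr and 53.97 to 63.9 at 3 hr. The complement gene *C1qa*, on the same list, was at 107.5 to 136 (24 hr) and 135 to 275 (3 hr) without WNK1. In control thymocytes it was at 24.7 to 71.6 (24 hr) and 118 to 148 (3 hr). None of the 10 tested markers passed in the interaction, and 8 were positive. Their median was 0.41, and -0.03 without control replicate 1 at 24 hr. The part of these markers in the *Plek* result was not tested.

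*Cblb* encodes an E3 ubiquitin ligase that restrains TCR signalling. It had 10236, 11749 and 7227 at 24 hr and 3859, 4834 and 6552 at 3 hr in WNK1-deficient thymocytes, against 4798, 5761 and 3899 at 24 hr and 9674, 10004 and 7705 at 3 hr in control thymocytes, so that the genotypes crossed: WNK1-deficient thymocytes were higher at 24 hr and lower at 3 hr, without overlap at either time. The log2 change was 0.94 without WNK1 (adjusted p = 0.00344) and -0.93 in control thymocytes (adjusted p = 0.00312), and the interaction 1.87 (SE 0.33, adjusted p = 0.0189). Of the other 33 tested members of the TCR signal transmission list none passed.

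Several genes stayed near their 3 hr level without WNK1 and fell in control thymocytes. *Tnfsf11*, which encodes the cytokine RANKL, had 1760.04, 1785 and 1709 (24 hr) and 1458, 1902 and 1713 (3 hr) in WNK1-deficient thymocytes, against 799.9, 607 and 551 (24 hr) and 1709, 2304 and 1797 (3 hr) in control thymocytes, with an interaction of 1.63 (SE 0.33, adjusted p = 0.0384). *Inka1*, which encodes an inhibitor of the kinase PAK4, had 617, 569 and 553 (24 hr) and 547, 493 and 499.7 (3 hr) in WNK1-deficient thymocytes, against 161, 163 and 183 (24 hr) and 411, 361 and 414 (3 hr) in control thymocytes, with an interaction of 1.40 (SE 0.25, adjusted p = 0.0247). In both genes the control libraries at 24 hr were the lowest of all 12.

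*Trim16*, which encodes a tripartite-motif protein linked to the autophagy of damaged organelles, had 992, 926 and 1126 (24 hr) and 1891, 1520.5 and 1498 (3 hr) in WNK1-deficient thymocytes, against 121, 226 and 149 (24 hr) and 1373, 1281 and 1775 (3 hr) in control thymocytes. Its interaction was 2.502 (SE 0.48, adjusted p = 0.0311), and it was the only called gene that still passed when lane was added to a fit of the 12 libraries alone (adjusted p = 0.0357). *Vav3*, a gene of the VAV signalling family, had 1929.9, 1895 and 1501 (24 hr) and 1126, 1435 and 1223 (3 hr) in WNK1-deficient thymocytes, against 826, 709 and 818 (24 hr) and 1190.2, 1709.6 and 1899 (3 hr) in control thymocytes and an interaction of 1.49 (SE 0.31, adjusted p = 0.0443).

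*Ptger4*, which encodes the EP4 receptor for prostaglandin E2, fell in both genotypes and by less without WNK1. It had 2916, 3138 and 2374 (24 hr) and 4184, 5597 and 5439 (3 hr) in WNK1-deficient thymocytes, against 1211, 1226 and 1467 (24 hr) and 3989.7, 5847 and 6799 (3 hr) in control thymocytes, a log2 change of -0.85 without WNK1 and -2.06 in control thymocytes, and an interaction of 1.21 (SE 0.23, adjusted p = 0.0294). *Ncoa4*, which encodes the cargo receptor for ferritin breakdown, had 8628 to 9684 (24 hr) and 8483 to 9666 (3 hr) in WNK1-deficient thymocytes, against 4899 to 5742 (24 hr) and 8755 to 9843 (3 hr) in control thymocytes, with an interaction of 0.77 (SE 0.16, adjusted p = 0.0443). Its control libraries at 24 hr lay below the other 9.

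For *Wdr25* and *Ankrd46* the groups that stood apart were those at 3 hr. *Wdr25*, a WD-repeat gene, had 217, 248 and 254 (24 hr) and 248, 257 and 275 (3 hr) in WNK1-deficient thymocytes, against 253, 276 and 300.04 (24 hr) and 615, 708 and 816 (3 hr) in control thymocytes, so that control thymocytes at 3 hr were far above the rest, with an interaction of 1.24 (SE 0.23, adjusted p = 0.0247). *Ankrd46*, an ankyrin-repeat gene, had 2190.2, 2443 and 2304 (24 hr) and 1359.8, 1343 and 1383 (3 hr) in WNK1-deficient thymocytes, against 1995, 2181 and 1819 (24 hr) and 1947, 1733 and 2034 (3 hr) in control thymocytes, with WNK1-deficient thymocytes at 3 hr lowest, with an interaction of 0.69 (SE 0.13, adjusted p = 0.0294). At 24 hr neither gene differed between the genotypes past the threshold.

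*Tspan4*, which encodes a tetraspanin, rose without WNK1 (log2 change 1.55) to 668 to 823 at 24 hr beside 193 to 349.8 at 3 hr, against 158 to 286 (24 hr) and 169 to 382 (3 hr) in control thymocytes, and its interaction was 1.88 (adjusted p = 0.0443). The remaining 3 of the 17 had means under 100 and were named after their values were seen. *Rai14*, which encodes an actin-associated ankyrin-repeat protein, was at 35.2 to 36.3 (24 hr) and 62.9 to 102 (3 hr) without WNK1 and 0.822 to 1.84 (24 hr) and 40.5 to 95.3 (3 hr) in control thymocytes (interaction 3.56). *Trpa1*, an ion channel gene, was at 44.6 to 154 (24 hr) and 45.7 to 82.2 (3 hr) without WNK1 and 7.34 to 21.6 (24 hr) and 69.2 to 95.3 (3 hr) in control thymocytes, with an interaction of 3.17, and *Has3*, a hyaluronan synthase gene of at most 20.61 normalized reads in any of the 12 libraries (mean 7.00, tested through its level at other times), one of 3.02 (adjusted p = 0.0443 for each of these 3 genes).

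The 23 genes with a lower interaction fell into groups of equal size: 8 fell without WNK1 and did not pass in control thymocytes, and 8 rose in control thymocytes and did not pass without WNK1. Another 4 fell in both genotypes, 2 fell without WNK1 and rose in control thymocytes, and 1 rose in both. The first of these groups holds the sorting marker *Thy1* and the kinase gene *Prkcb*, and the second holds *Gzma*, *Tpm4* and *Sit1*.

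*Thy1* encodes the glycoprotein that the gate selects on (chromosome 9, 44043384 to 44048579 of GRCm38), and was named after its values were seen. It had 10980.1, 11544 and 17950.1 at 24 hr and 43869, 41315 and 54466 at 3 hr in WNK1-deficient thymocytes, against 29874, 31606 and 44164 at 24 hr and 39339, 29717 and 33116 at 3 hr in control thymocytes. The WNK1-deficient libraries at 24 hr lay below all the other 9, and the control libraries of the 2 times overlapped. *Thy1* fell by 1.81 on the log2 scale without WNK1, with a change of 0.04 in control thymocytes, and the interaction was -1.85 (SE 0.31, adjusted p = 0.0176). It passed in 9 of the 12 fits with 1 library left out. Of the 14 T-lineage markers tested *Thy1* alone passed, and the list median, *Thy1* included, was -0.42. An unadjusted p under 0.05 with a lower interaction was reached by 5 of the 14, beside 5.3% of all genes. With lane in the fit of 25 libraries, and again with DESeq2, 2 passed lower, *Thy1* and *Ptcra*. Beside these, 96 and 131 of all 14141 genes passed lower in the 2 fits. The summed level of all 14, *Thy1* included, was 200846 to 238579 in WNK1-deficient thymocytes at 24 hr and 407889 to 534468 at 3 hr, against 262875 to 319400.00 in control thymocytes at 24 hr and 449358 to 609172 at 3 hr, and the part of this in the *Thy1* result was not tested.

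*Prkcb* encodes protein kinase Cβ, which acts below antigen receptors. It had 1877, 2022 and 2252 (24 hr) and 5024, 6193 and 5588 (3 hr) in WNK1-deficient thymocytes, against 5716, 4220.2 and 6339 (24 hr) and 5724, 5855 and 6466 (3 hr) in control thymocytes. All WNK1-deficient libraries at 24 hr lay below the other 9, and the interaction was -1.28 (SE 0.22, adjusted p = 0.0176). *Angptl2*, which encodes a secreted angiopoietin-like protein, followed the same pattern with 616, 587 and 752 (24 hr) and 2585, 3468 and 4602 (3 hr) in WNK1-deficient thymocytes, against 2193, 2645 and 3267 (24 hr) and 3918, 3271 and 3941 (3 hr) in control thymocytes and an interaction of -1.94 (SE 0.32, adjusted p = 0.0176).

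*Tmprss4*, which encodes a transmembrane serine protease, had 80.1, 96.3 and 121 (24 hr) and 417, 547 and 639.6 (3 hr) in WNK1-deficient thymocytes, against 491, 482 and 537 (24 hr) and 471, 459.8 and 283 (3 hr) in control thymocytes. *Rab11fip4*, which encodes an effector of the recycling GTPase RAB11, had 177, 235 and 277 (24 hr) and 1297, 1905 and 1309 (3 hr) in WNK1-deficient thymocytes, against 1175, 1018 and 2510.4 (24 hr) and 2017, 2129.8 and 2517 (3 hr) in control thymocytes. In both genes the WNK1-deficient libraries at 24 hr stood alone at the bottom, and the interactions were -2.77 (SE 0.48, adjusted p = 0.0176) for *Tmprss4* and -2.09 (SE 0.36, adjusted p = 0.0176) for *Rab11fip4*. *Arl5c*, a gene of the ARF-like GTPase family, gave -1.86 (adjusted p = 0.0443), with 388 to 537 (24 hr) and 1878 to 2658 (3 hr) in WNK1-deficient thymocytes, against 1019 to 2107 (24 hr) and 1487 to 2598 (3 hr) in control thymocytes.

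**Figure D2:**
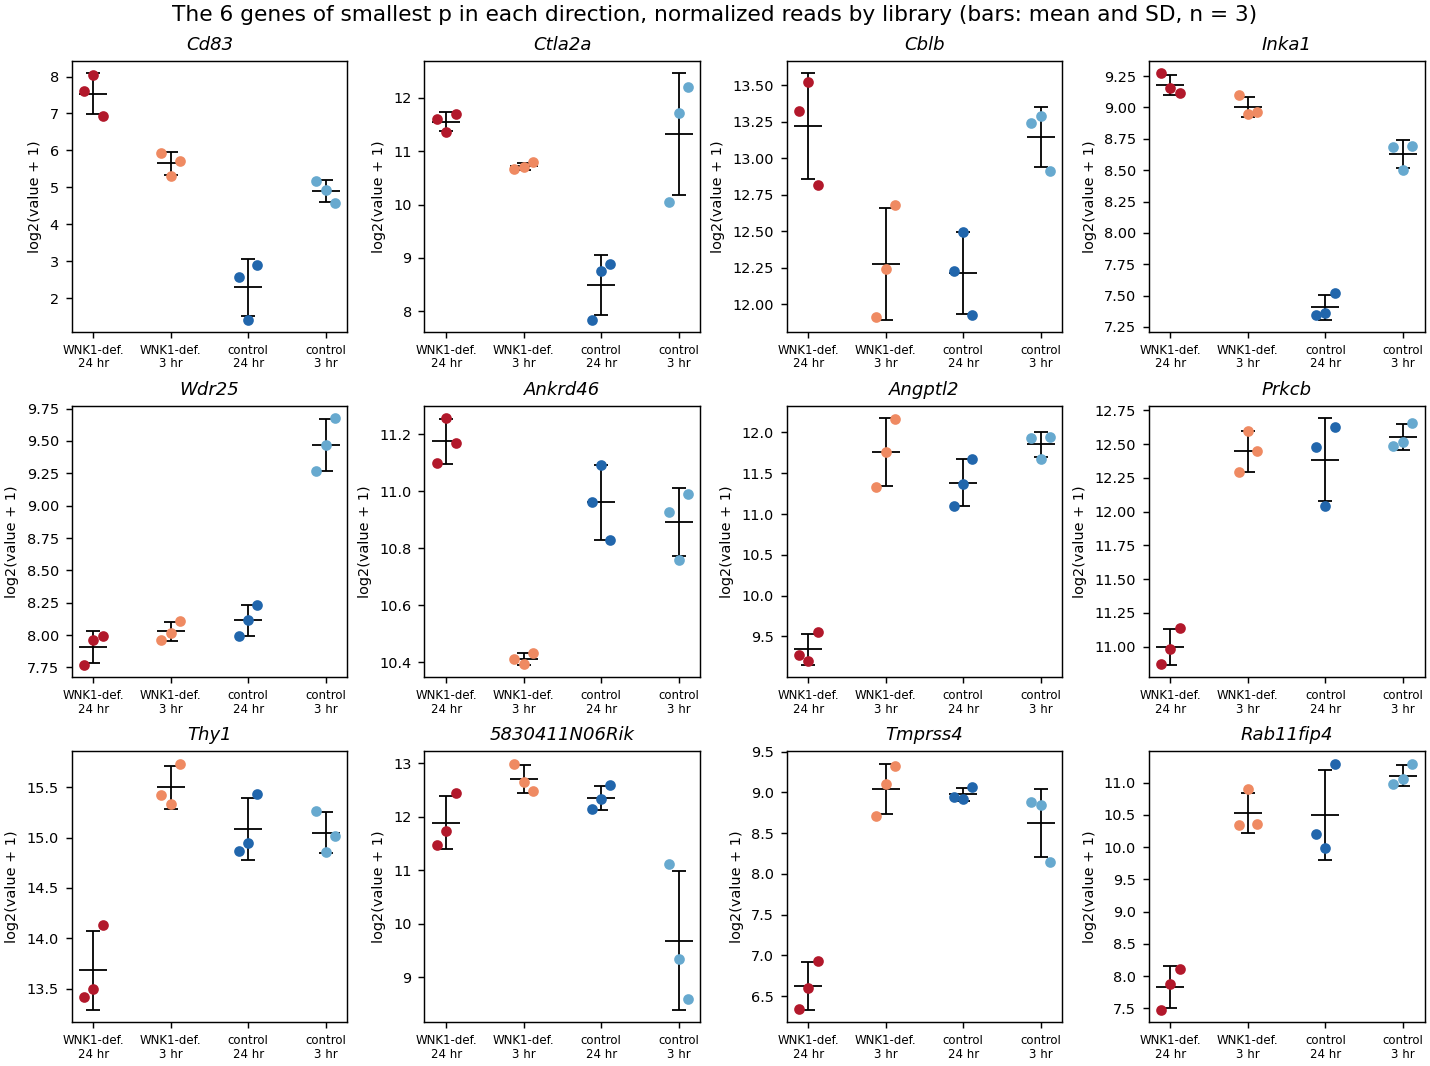
Levels of the 6 genes of smallest p in each direction, as log2 of normalized reads plus 1, in each of the 12 libraries (points) with mean and SD (bars, n = 3 mice). *Cd83*, *Ctla2a*, *Cblb*, *Inka1*, *Wdr25* and *Ankrd46* have the higher interactions, and in *Angptl2*, *Prkcb*, *Thy1*, *Tmprss4* and *Rab11fip4* the WNK1-deficient libraries at 24 hr are below the other 9, while in *5830411N06Rik* the control libraries at 3 hr are.

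The largest lower interaction among the called genes was that of *Col27a1*, a fibrillar collagen chain gene, at -4.38 (SE 0.82, adjusted p = 0.0294). It had 13.4, 9.17 and 17.04 at 24 hr and 669, 1273 and 1208 at 3 hr in WNK1-deficient thymocytes, against 42.7, 28.3 and 134 at 24 hr and 117, 201 and 315 at 3 hr in control thymocytes. WNK1-deficient thymocytes were below control thymocytes at 24 hr and above them at 3 hr, without overlap, and the gene fell by 6.19 without WNK1 and fell by 1.81 in control thymocytes. *Rasal1*, which encodes a GTPase-activating protein for RAS, fell by 3.67 without WNK1 and fell by 1.63 in control thymocytes, with 152, 102 and 123 (24 hr) and 1264, 1765 and 1813 (3 hr) in WNK1-deficient thymocytes, against 338, 424 and 575 (24 hr) and 1869, 1259.7 and 1046 (3 hr) in control thymocytes, with an interaction of -2.04 (SE 0.38, adjusted p = 0.0291).

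*Slc16a5*, a monocarboxylate transporter family gene, had 102, 90.2 and 214 (24 hr) and 1865, 1753 and 1428 (3 hr) in WNK1-deficient thymocytes, against 677, 529 and 1856 (24 hr) and 2109.7, 1140.1 and 2341 (3 hr) in control thymocytes, with an interaction of -2.70 (SE 0.52, adjusted p = 0.0306). Control replicate 3 at 24 hr was the highest of its group, and without it the value was -2.15 (adjusted p = 0.0374). *Pou6f1*, a POU-domain transcription factor gene, had 108 to 159 (24 hr) and 758 to 988 (3 hr) in WNK1-deficient thymocytes, against 306 to 593 (24 hr) and 687 to 955 (3 hr) in control thymocytes (interaction -1.70, adjusted p = 0.0384). *Akap6*, which encodes an anchor protein for protein kinase A, and *Dock1*, which encodes an exchange factor for RAC, fell without WNK1 alone, with interactions of -2.78 and -3.24 (adjusted p = 0.0443 each). *Akap6* was at 21.4 to 105 (24 hr) and 455 to 659 (3 hr) without WNK1, against 98.1 to 229 (24 hr) and 189 to 420.2 (3 hr) in control thymocytes. *Dock1* was at 13.1 to 20.8 (24 hr) and 132 to 138 (3 hr) without WNK1, against 41.1 to 118 (24 hr) and 36.7 to 94.2 (3 hr) in control thymocytes.

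In several genes that passed in control thymocytes alone, the group that stood apart was control thymocytes at 3 hr. *Gzma*, which encodes the cytotoxic protease granzyme A, had 4952, 3696 and 8988 at 24 hr and 10775, 7259 and 8056 at 3 hr in WNK1-deficient thymocytes, against 18721, 9202 and 18615 at 24 hr and 2215, 1400.1 and 2731 at 3 hr in control thymocytes. Control thymocytes at 3 hr were below every other library, and the interaction was -3.50 (SE 0.70, adjusted p = 0.0384). *Gzma* also stands on the list of NK and innate lymphoid markers, whose summed level was 16472 to 22859.6 in WNK1-deficient thymocytes at 24 hr and 14490.1 to 20708 at 3 hr, against 18097 to 25147 in control thymocytes at 24 hr and 11127 to 11894 at 3 hr. *Gzma* itself is part of this sum and made up most of it in control thymocytes at 24 hr. The sum is therefore no separate check on *Gzma*. Of the 12 tested members of the list 10 had a positive interaction, unlike *Gzma*, and the NK receptor gene *Ncr1* was at 58.98 to 118 (24 hr) and 17.1 to 33.3 (3 hr) without WNK1 and 4.93 to 14.97 (24 hr) and 2.09 to 8.83 (3 hr) in control thymocytes. The part of such cells in the *Gzma* result was not tested.

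*Tpm4*, which encodes an actin-binding tropomyosin, had 11774, 10222 and 9630.3 (24 hr) and 6702, 6568 and 6738 (3 hr) in WNK1-deficient thymocytes, against 19701, 13840.2 and 10032 (24 hr) and 3850.4, 2849.7 and 1127 (3 hr) in control thymocytes. It rose in control thymocytes by 2.60, with a change of 0.66 without WNK1 that did not pass, and the interaction was -1.94 (SE 0.41, adjusted p = 0.0443). *Tpm4* was the only one of 34 tested actin cytoskeleton genes to pass. *Atrnl1*, an attractin-like gene, had 200.2 to 224 (24 hr) and 263 to 356 (3 hr) in WNK1-deficient thymocytes, against 191 to 297 (24 hr) and 53.4 to 154 (3 hr) in control thymocytes (interaction -1.98, adjusted p = 0.0443).

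*5830411N06Rik* was named after its values were seen and had 2855, 3419.5 and 5574 (24 hr) and 8178, 6406 and 5754 (3 hr) in WNK1-deficient thymocytes, against 4539, 5148 and 6199 (24 hr) and 2219, 651 and 384 (3 hr) in control thymocytes, with an interaction of -3.50 (SE 0.60, adjusted p = 0.0176). *Sit1*, which encodes a transmembrane adaptor that dampens TCR signalling, had 628, 673 and 923 (24 hr) and 833, 889 and 908 (3 hr) in WNK1-deficient thymocytes, against 973, 1001 and 947 (24 hr) and 450.4, 273 and 508 (3 hr) in control thymocytes, with an interaction of -1.55 (SE 0.33, adjusted p = 0.0456). In both, control thymocytes at 3 hr were the lowest of the 4 groups. *H2-Q2*, a class I gene of a family of close copies whose reads are uncertain, had 100.1, 225 and 191 (24 hr) and 637, 294 and 545 (3 hr) in WNK1-deficient thymocytes, against 1084, 627 and 477 (24 hr) and 28.5, 69.2 and 435 (3 hr) in control thymocytes, an interaction of -4.35 (SE 0.93, adjusted p = 0.0456) and a wide spread in control thymocytes at 3 hr. Adding lane to the fit of 25 libraries brought it to -2.88 (adjusted p = 0.115).

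The remaining called genes were named after their values were seen. *Galnt12*, which encodes an enzyme that starts O-glycans on proteins, had 1220.2 to 1227 (24 hr) and 1060.3 to 1247 (3 hr) in WNK1-deficient thymocytes, against 1788 to 2003 (24 hr) and 811 to 1133 (3 hr) in control thymocytes, and an interaction of -0.89 (adjusted p = 0.0306). *Tctn3*, which encodes a protein at the base of the cilium, had one of -1.005. *Mical3*, which encodes an enzyme that oxidises actin, and *Cdr2l* fell without WNK1 and rose in control thymocytes, with interactions of -1.70 and -2.50. *Mical3* was at 254 to 315 (24 hr) and 377 to 556 (3 hr) without WNK1, against 653 to 905 (24 hr) and 248 to 546 (3 hr) in control thymocytes. *Cdr2l* was at only 5.19 to 6.11 in WNK1-deficient thymocytes at 24 hr. The gene ENSMUSG00000100529, for which no symbol was found, rose in both and had an interaction of -2.95. Adjusted p lay between 0.033 and 0.0456 in *Tctn3*, *Mical3*, *Cdr2l* and ENSMUSG00000100529.

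How firmly single genes stand differs widely. With 1 of the 12 libraries left out in turn, the number of called genes ran from 2 (without WNK1-deficient replicate 2 at 24 hr) to 271 (without control replicate 1 at 3 hr). It was 3 without WNK1-deficient replicate 1 at 24 hr, 19, 4 and 3 without WNK1-deficient replicates 1, 2 and 3 at 3 hr, 26, 26 and 77 without control replicates 1, 2 and 3 at 24 hr, and 15 without control replicate 2 at 3 hr. Without control replicate 3 at 24 hr, 32 of the 40 passed, and *Zbtb7b*, *Trpa1*, *Tnfsf11*, *Sit1*, *Arl5c*, *Atrnl1*, *Akap6* and *Dock1* did not, with adjusted p between 0.0502 and 0.0641. *Cd83* and *Ctla2a* passed in all 12 of these fits, and every one of the 40 genes kept the sign of its interaction in all 12. With lane added to the fit of 25 libraries, 27 of the 40 passed. In the fit of the 12 libraries alone 9 passed, and with lane added to that fit 1 did. *Cd83* was among the 9 (adjusted p = 0.0487), and *Ctla2a* was not (adjusted p = 0.0719). In the 7 libraries of lane 4 all 40 interactions had the same sign, but WNK1-deficient thymocytes at 24 hr and control thymocytes at 3 hr were then 1 library each. On recovered reads, edgeR called 28 of the 40 and DESeq2 39. An unadjusted p under 0.05 was reached by 709 genes (5.01%) in the higher and 750 (5.3%) in the lower direction, together 1459 of the 14141 tested. The p-values are 2-sided, so each of these shares covers 1 direction only.

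**Figure D3:**
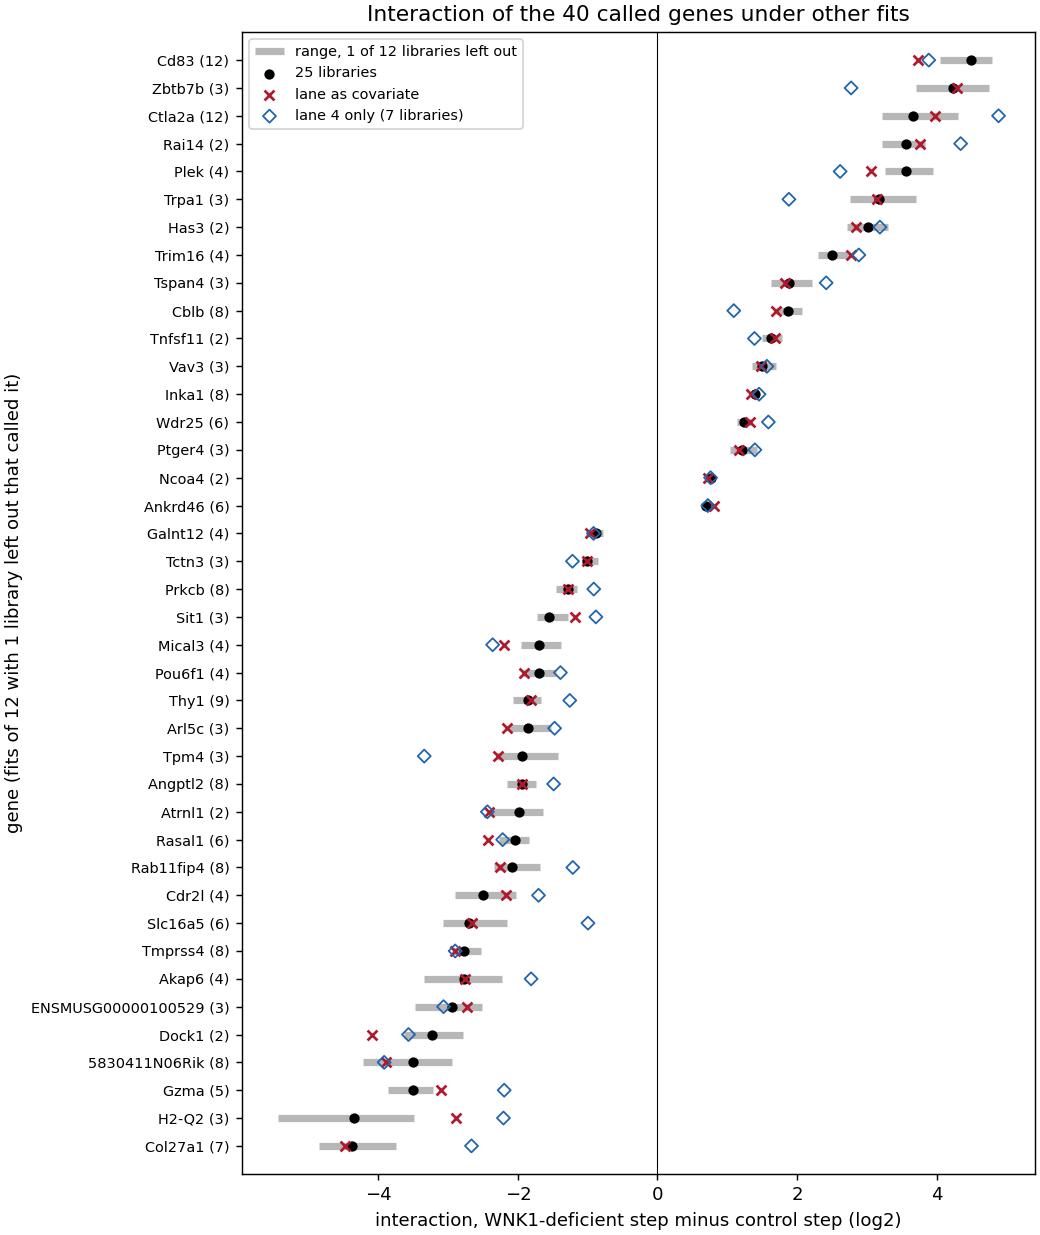
Interaction (log2) of the 40 called genes in the fit of 25 libraries (black points), its range when each of the 12 libraries is left out (grey bars), with lane as a covariate (crosses) and in lane 4 alone (diamonds, 7 libraries). All values stay on their side of 0, and the number after each gene counts the fits, of 12 with 1 library left out, in which it passed: 12 for *Cd83* and *Ctla2a*, 9 for *Thy1* and 2 for *Has3*, *Rai14*, *Tnfsf11*, *Ncoa4*, *Atrnl1* and *Dock1*.

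The 48 hr libraries come from other mice and are no term of the interaction, although they share in the estimate of the spread and in the mean of at least 10 that a gene needed, and they show whether a genotype difference stood at a later time. WNK1-deficient and control thymocytes differed at 48 hr, past the threshold, in 12 of the 17 higher genes and 6 of the 23 lower genes, each time in the direction of the interaction, beside 13.1% of all genes tested in either direction. None of the 40 genes passed at 48 hr in the other direction. The log2 difference at 48 hr was 2.25 for *Cd83*, 2.52 for *Ctla2a*, 2.93 for *Zbtb7b*, 3.46 for *Trim16*, 1.75 for *Plek* and 1.48 for *Tnfsf11*. Among the lower genes it was -2.27 for *Cdr2l*, -1.19 for *Rab11fip4*, -1.13 for *Mical3* and -0.93 for *Prkcb*. *Thy1* (-0.32), *Angptl2* (0.40), *Gzma* (0.45) and *Cblb* (-0.35) did not pass at 48 hr. Many genes that passed at 48 hr already differed the same way, past the threshold, at 0 hr. These were *Trim16* (2.23, adjusted p = 6.13e-05), *Tspan4*, *Tnfsf11*, *Inka1*, *Ptger4*, *Ncoa4*, *Cdr2l*, *Rab11fip4*, *Mical3* and *Arl5c*. *Cd83*, *Zbtb7b*, *Ctla2a*, *Plek*, *Trpa1*, *Vav3*, *Tctn3* and *Prkcb* passed at 48 hr and not at 0 hr. Other called genes passed at 0 hr and not at 48 hr, such as *Cblb* (-1.39, adjusted p = 0.000145). Whether the 48 hr differences arose in the step from 3 to 24 hr was not tested.

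**Figure D4:**
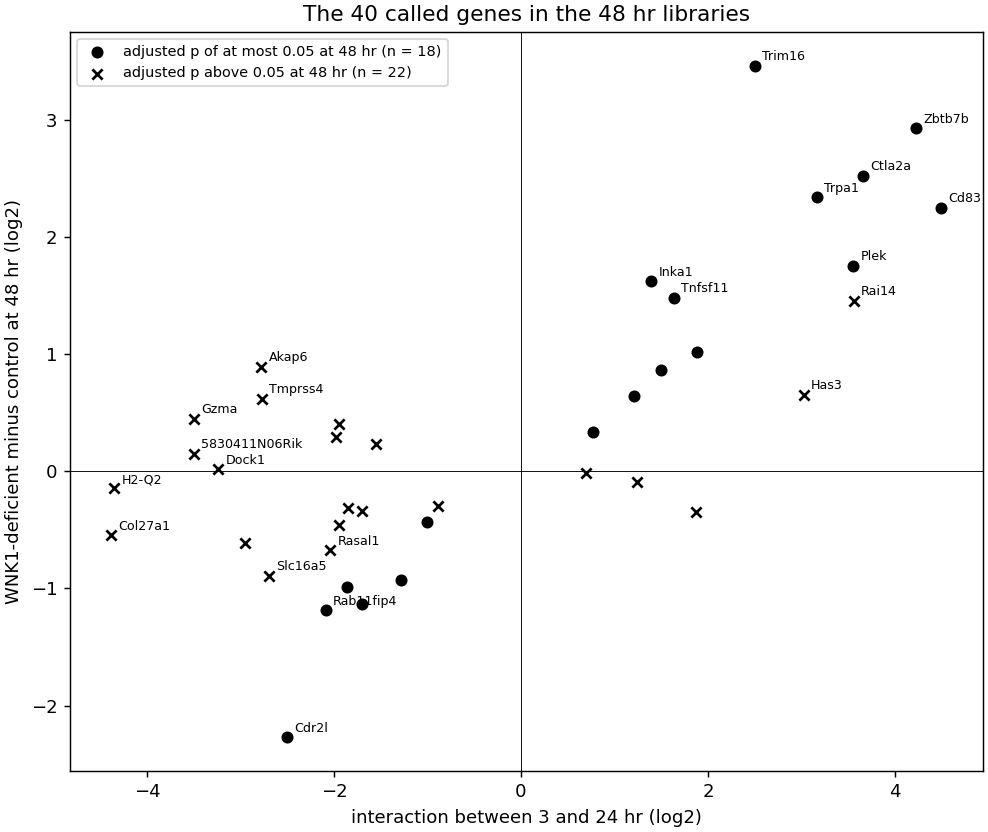
Difference between WNK1-deficient and control thymocytes at 48 hr (vertical axis, log2, 3 libraries each) against the interaction between 3 and 24 hr (horizontal axis, log2) for the 40 called genes. Points passed at 48 hr (18 genes, 12 of them at the upper right and 6 at the lower left) and crosses did not (22 genes).

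The other genes of the response were read through 26 lists with 651 tested genes, in which 3 passed higher (*Cd83*, *Cblb*, *Tnfsf11*) and 2 lower (*Tpm4*, *H2-Q2*). In genes of DNA replication the interaction mostly had 1 sign. Of 48 tested, 46 had a negative interaction and 2 a positive one, with a median of -0.73 beside 0.01 for all genes. None passed, and 18 had an unadjusted p under 0.05, beside 5.3% of all genes in this direction. In control thymocytes 32 of the 48 rose (21.3% of all genes did) and none fell, and in WNK1-deficient thymocytes 4 rose (18.4% of all genes did), 2 fell and 42 did not pass.

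The mean log2 level of the replication list was 11.28, 11.22 and 11.25 at 24 hr in WNK1-deficient thymocytes and 10.93, 10.90 and 11.30 at 3 hr, against 11.98, 11.69 and 12.25 in control thymocytes at 24 hr and 11.16, 10.62 and 11.44 at 3 hr. All control libraries at 24 hr were above all WNK1-deficient libraries, and at 3 hr the genotypes overlapped. *Chaf1b*, which encodes a subunit of the histone chaperone that follows the replication fork, had 1497, 1452 and 1509.8 (24 hr) and 1281, 1480.5 and 2259 (3 hr) in WNK1-deficient thymocytes, against 3112, 3635 and 4450.1 (24 hr) and 2739.6, 1389 and 1503 (3 hr) in control thymocytes, with an interaction of -1.17 (SE 0.36, adjusted p = 0.187). *Tk1*, the thymidine kinase gene, had 1619.9, 1400.2 and 1404 (24 hr) and 703, 537 and 899 (3 hr) in WNK1-deficient thymocytes, against 3251, 3171 and 3898 (24 hr) and 572, 379.7 and 1094 (3 hr) in control thymocytes, with one of -1.39 (SE 0.51, adjusted p = 0.297). *Rpa1*, which encodes a subunit of the protein that coats single-stranded DNA, had one of -0.56 (SE 0.20, adjusted p = 0.287). The median of the list was -0.59 without control replicate 3 at 24 hr, -0.71 with lane in the fit and -0.24 in lane 4 alone.

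Genes of mitosis and cytokinesis rose in both genotypes, 30 of 33 without WNK1 and 33 of 33 in control thymocytes, beside 18.4% and 21.3% of all genes. All 33 interactions were negative (median -0.75), as were 6879 of all 14141, none passed, and none had an unadjusted p under 0.05. The mean log2 level was 11.50, 11.41 and 11.42 at 24 hr in WNK1-deficient thymocytes and 9.92, 9.53 and 10.05 at 3 hr, against 12.02, 11.40 and 11.67 in control thymocytes at 24 hr and 8.88, 8.86 and 10.38 at 3 hr, so that the genotypes overlapped at both times. Control replicate 3 at 3 hr was the highest library of that time, and the median was -1.25 without it and -0.49 without replicate 2 of that group. With lane in the fit the median was -0.28, and in lane 4 alone it turned to 0.08. *Plk1*, the mitotic kinase gene, had an interaction of -1.08 (SE 0.57, adjusted p = 0.551).

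Regulators of the G1 to S transition gave a median of -0.26, with 23 of 31 negative and none past the threshold. It was -0.45 without control replicate 3 at 3 hr and turned to 0.06 in lane 4 alone. *E2f2*, which encodes a factor that drives S phase genes, had 2741, 2744 and 3039 (24 hr) and 1679, 1275 and 1789.95 (3 hr) in WNK1-deficient thymocytes, against 5359, 5272 and 5144 (24 hr) and 981, 693 and 1818 (3 hr) in control thymocytes, with an interaction of -1.43 (SE 0.44, adjusted p = 0.196). *Ccne1*, the cyclin E1 gene, gave -1.38 (SE 0.49, adjusted p = 0.278) and *Ccnd3*, the cyclin D3 gene, -0.83 (SE 0.27, adjusted p = 0.213). For *E2f2* and *Ccne1* every control library at 24 hr exceeded every WNK1-deficient library.

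Interferon-stimulated genes had a median of -1.01 and none past the threshold. Of the 34, 33 were negative, beside 6879 of all 14141, and 18 had an unadjusted p under 0.05, all lower, beside 5.3% of all genes in this direction. In WNK1-deficient thymocytes 1 of the 34 rose and 10 fell, and in control thymocytes 12 rose and 2 fell, beside 18.4% and 18.7% of all genes without WNK1 and 21.3% and 22.3% in control thymocytes. The mean log2 level was 9.37, 9.65 and 9.88 at 24 hr in WNK1-deficient thymocytes and 10.58, 9.64 and 10.44 at 3 hr, against 11.05, 10.98 and 9.41 in control thymocytes at 24 hr and 9.76, 9.88 and 9.71 at 3 hr. Control replicate 3 at 24 hr was far below its group. Without it the median was -1.50 and 5 of the 34 passed, all lower, beside 0.325% of all genes called lower in that fit, and this library had been singled out partly on these genes. With lane in the fit the median was -0.61.

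*Isg15*, which encodes a ubiquitin-like protein induced by interferon, had 286, 399 and 522 (24 hr) and 1475, 727 and 1375 (3 hr) in WNK1-deficient thymocytes, against 2267, 1995 and 567 (24 hr) and 1082, 906 and 755 (3 hr) in control thymocytes, with an interaction of -2.14 (SE 0.74, adjusted p = 0.251). *Oas3*, which encodes a sensor of double-stranded RNA, had 927, 1099 and 1439 (24 hr) and 1512, 473 and 1136 (3 hr) in WNK1-deficient thymocytes, against 5061, 5289.9 and 938 (24 hr) and 438, 688 and 624 (3 hr) in control thymocytes, with one of -2.07 (SE 0.72, adjusted p = 0.266). *Irf1*, a transcription factor gene of the interferon response, gave -0.60 (SE 0.21, adjusted p = 0.278). In each of these genes control replicate 3 was the lowest control library at 24 hr, and without it the interaction was -2.77 for *Isg15*, -2.89 for *Oas3* and -0.75 for *Irf1*.

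**Figure D5:**
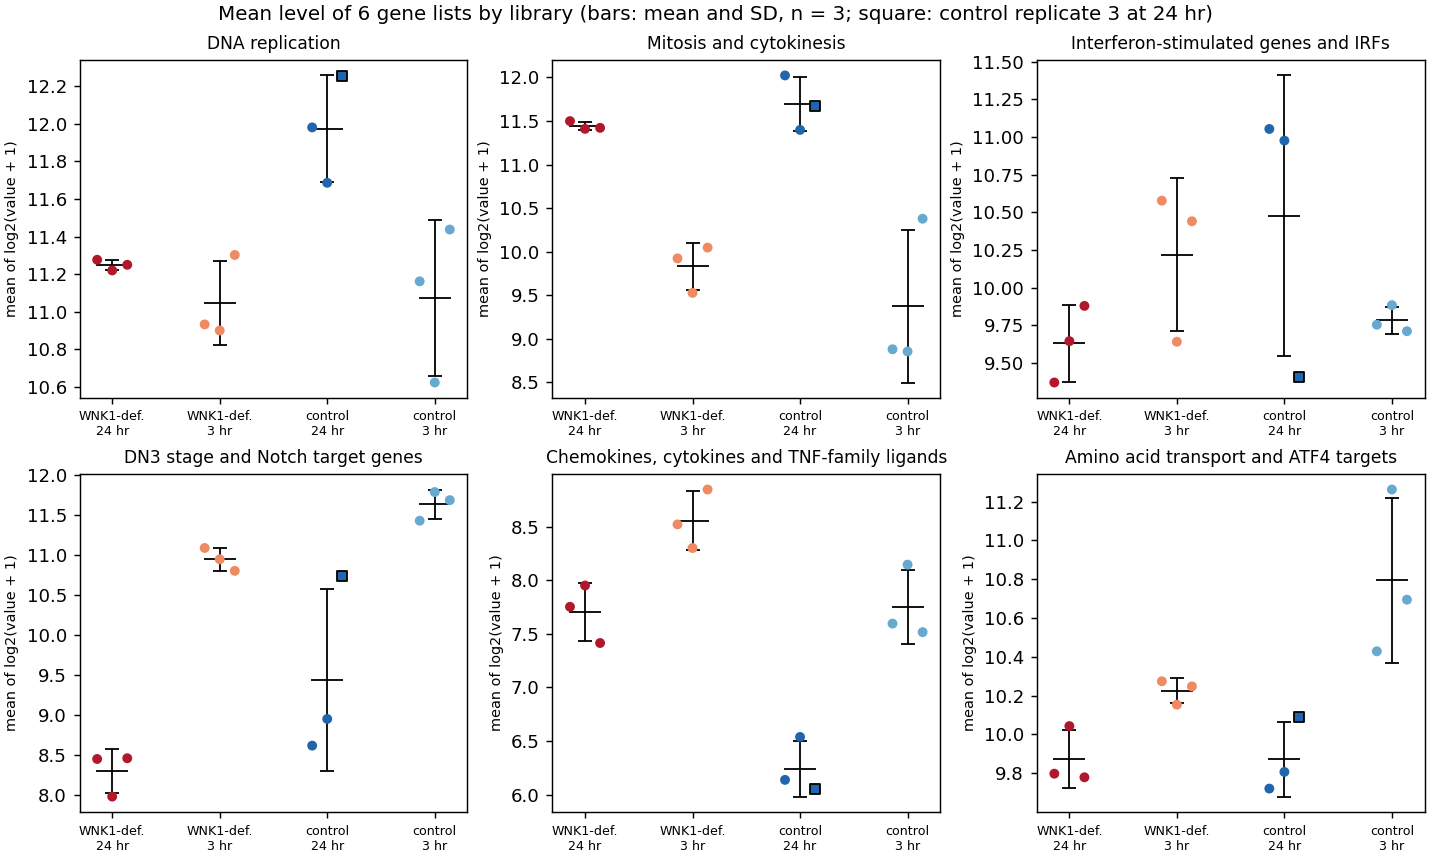
Mean log2 level (normalized reads plus 1) of 6 gene lists in each of the 12 libraries, with mean and SD (bars, n = 3 mice) and control replicate 3 at 24 hr as a square. The replication list is higher in all control libraries at 24 hr than in all WNK1-deficient libraries, and the square lies apart from its group for interferon-stimulated genes (below) and for DN3 stage and Notch target genes (above).

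DN3 stage and Notch target genes fell in both genotypes, 17 of 22 without WNK1 and 16 of 22 in control thymocytes, beside 18.7% and 22.3% of all genes. The median interaction was -0.81, none passed, and it was -0.14 without control replicate 3 at 24 hr and -1.37 without replicate 1 of that group. With lane in the fit the median was -1.53, with 1 member called higher and 4 lower, beside 0.304% of all genes called higher and 0.679% lower in that fit, and in lane 4 alone it was 0.03. DESeq2 called 3 higher and 1 lower, beside 130 higher and 131 lower of all 14141 genes tested. *Ptcra* had 5.93, 3.06 and 3.93 at 24 hr and 1157, 1368 and 1135 at 3 hr in WNK1-deficient thymocytes, against 59.2, 115 and 2344 at 24 hr and 3993, 1758 and 1597 at 3 hr in control thymocytes, with an interaction of -4.74 (SE 1.45, adjusted p = 0.189) and of -3.13 without that library (adjusted p = 0.265). It passed with lane in the fit of 25 libraries (-6.62, adjusted p = 0.00906) and with DESeq2 (-6.57, adjusted p = 0.00392), but not with edgeR (-6.44, adjusted p = 0.141). Since control replicate 3 at 24 hr was in lane 3 and the rest of its group in lane 4, the values with lane are not separate from that library. Members had values in both directions: *Lyl1*, a factor gene of early progenitors, had 1147, 705 and 1179.5 (24 hr) and 169, 70.02 and 90.3 (3 hr) in WNK1-deficient thymocytes, against 37.8, 169.7 and 24.8 (24 hr) and 45.1, 779 and 969 (3 hr) in control thymocytes, with an interaction of 5.81 (SE 1.41, adjusted p = 0.0906). *Hhex*, another progenitor factor gene, gave 3.83 (SE 1.17, adjusted p = 0.187), and in both genes control replicate 1 at 3 hr was far below the other control libraries of that time. Without it the values were 7.22 for *Lyl1* and 4.98 for *Hhex*. *Lyl1* passed with lane in the fit of 25 libraries (7.28, adjusted p = 0.0334) and with DESeq2 (6.16, adjusted p = 0.00151). It did not pass with edgeR (6.20, adjusted p = 0.0603). *Hhex* passed with DESeq2 (4.36, adjusted p = 0.0173), but not with lane (adjusted p = 0.0966) or edgeR (adjusted p = 0.108).

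The early response declined in both genotypes. Of 31 immediate-early and TCR feedback genes 22 fell without WNK1 and 25 in control thymocytes, beside 18.7% and 22.3% of all genes. The median interaction was 0.09, and *Cd83* alone passed. *Dusp1* and *Dusp5*, which encode phosphatases that switch off MAP kinases, had interactions of -1.12 (SE 0.27, adjusted p = 0.081) and -0.86 (SE 0.27, adjusted p = 0.199). Of 24 NF-kB subunits, inhibitors and targets none passed (median -0.10), with values of 2.49 for *Tnfrsf9*, the costimulatory receptor 4-1BB, and 0.67 for *Nfkb2*.

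Chemokines, cytokines and TNF-family ligands had a median of 0.71, with 13 of 20 positive and *Tnfsf11* alone past the threshold. Without control replicate 3 at 24 hr the median was 0.43, with lane in the fit 0.52, and in lane 4 alone -0.08. *Xcl1*, which encodes the chemokine lymphotactin, had 1117, 1160.2 and 237 (24 hr) and 73.5, 62.9 and 207 (3 hr) in WNK1-deficient thymocytes, against 8.22, 21.6 and 7.34 (24 hr) and 15.7, 83.1 and 53.4 (3 hr) in control thymocytes, with an interaction of 4.58 (SE 1.28, adjusted p = 0.146). *Cxcl10*, a chemokine gene induced by interferon, had 59.3, 84.1 and 81.3 (24 hr) and 1554, 860.3 and 1951 (3 hr) in WNK1-deficient thymocytes, against 125, 141 and 17.4 (24 hr) and 96.2, 107 and 74.4 (3 hr) in control thymocytes, with one of -3.78 (SE 1.02, adjusted p = 0.123). For *Xcl1* every WNK1-deficient library at 24 hr was above the other 9, and for *Cxcl10* every WNK1-deficient library at 3 hr was.

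Amino acid transporters and targets of ATF4, the factor of the amino acid response, gave a median of 0.41, with 20 of 24 positive and none past the threshold. Without control replicate 2 at 3 hr it was 0.17. *Atf4* itself fell by 0.73 without WNK1 and fell by 1.26 in control thymocytes, with an interaction of 0.53 (SE 0.20, adjusted p = 0.307). *Chac1*, which encodes an enzyme that breaks down glutathione, had 0.742, 0 and 0 (24 hr) and 2.32, 1.43 and 1.48 (3 hr) in WNK1-deficient thymocytes, against 0, 0 and 0.918 (24 hr) and 21.6, 256 and 28.3 (3 hr) in control thymocytes: the control libraries at 3 hr alone were well above 0, with an interaction of 4.30 (SE 1.07, adjusted p = 0.0965). *Mthfd2*, a gene of mitochondrial one-carbon metabolism, gave 0.80 (SE 0.25, adjusted p = 0.204).

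Among chemokine and egress receptors 0 of 16 passed, and their median was 0.02. *Ccr2* gave 1.53 and *Gpr183* 1.33. *S1pr1*, which encodes the receptor that guides exit from the thymus, varied within groups, with 369, 228 and 583 (24 hr) and 1631, 34.3 and 10.4 (3 hr) in WNK1-deficient thymocytes, against 1914, 2312 and 440.4 (24 hr) and 9.81, 59.3 and 9.43 (3 hr) in control thymocytes, with an interaction of -3.97 (SE 1.77, adjusted p = 0.436). Integrin, adhesion and RAP genes, 30 in all, had a median of 0.01 and none passed. *Rassf5*, which encodes the RAP1 effector RAPL, gave 0.67 (SE 0.21, adjusted p = 0.212), and *Itgae*, which encodes the integrin chain CD103, -2.08 (SE 0.74, adjusted p = 0.278).

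WNK pathway genes showed no difference past the threshold in their step, with 0 of 16 called and a median of 0.01. *Slc12a2*, which encodes the sodium-potassium-chloride cotransporter NKCC1, had 616, 665 and 684 (24 hr) and 865, 825 and 631 (3 hr) in WNK1-deficient thymocytes, against 290.2, 185 and 362 (24 hr) and 195, 132 and 65.98 (3 hr) in control thymocytes, with an interaction of -1.39 (SE 0.44, adjusted p = 0.199). *Wnk3* had 30.4, 29.04 and 36.7 (24 hr) and 37.9, 35.7 and 35.5 (3 hr) in WNK1-deficient thymocytes, against 3.29, 3.33 and 1.84 (24 hr) and 11.8, 13.8 and 12.6 (3 hr) in control thymocytes, with one of 1.69 (SE 0.66, adjusted p = 0.34). WNK1-deficient thymocytes had the higher level of both genes at 24 hr and at 3 hr, without overlap.

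In the other lists no gene passed except *Cblb*, *Tpm4* and *H2-Q2*. Their medians lay between -0.62 (11 genes low without WNK1) and 0.33 (12 mitochondrially encoded genes). The first of these lists was chosen on these samples and is not independent evidence, and its median was 0.28 without control replicate 3 at 24 hr and -2.42 with lane in the fit. The median of the mitochondrially encoded genes was 0.01 without control replicate 2 at 24 hr and 0.55 without replicate 3. Ribosome biogenesis and MYC-linked growth genes fell alike, 31 of 38 without WNK1 and 32 of 38 in control thymocytes, beside 18.7% and 22.3% of all genes. Their median interaction was 0.07. Glycolysis genes gave -0.15 (28 genes), cholesterol and fatty acid synthesis -0.08 (28 genes) and the BCL2 family with p53 targets 0.22 (24 genes). Among the last, *Bcl2*, the survival gene, had 8354, 9870.3 and 8562 (24 hr) and 10986, 12161 and 10138 (3 hr) in WNK1-deficient thymocytes, against 3286, 2753 and 3165 (24 hr) and 6582, 12032 and 6721 (3 hr) in control thymocytes, with an interaction of 1.09 (SE 0.39, adjusted p = 0.279).

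Of the quiescence genes *Klf3*, which encodes a repressor of the KLF family, came closest to the threshold, with 581, 440.2 and 779.8 (24 hr) and 6055, 5555 and 4807 (3 hr) in WNK1-deficient thymocytes, against 1827, 1416 and 3819.7 (24 hr) and 5117, 5776 and 4634 (3 hr) in control thymocytes and an interaction of -1.95 (SE 0.48, adjusted p = 0.0965). All WNK1-deficient libraries at 24 hr were below the other 9. *Klf4* gave 1.62 (SE 0.58, adjusted p = 0.28). In the STAT list *Il4ra*, the interleukin 4 receptor gene, had 3715, 5252 and 3913 (24 hr) and 1032, 582 and 757 (3 hr) in WNK1-deficient thymocytes, against 1464, 2331 and 508 (24 hr) and 541, 1293 and 1359 (3 hr) in control thymocytes, with an interaction of 2.17 (SE 0.68, adjusted p = 0.199), and *Socs2*, a feedback inhibitor gene, 1.82 (SE 0.65, adjusted p = 0.28). In the actin list *Actn1*, the α-actinin gene, gave -0.80 (SE 0.22, adjusted p = 0.144), and *Inf2*, a formin gene, -1.71 (SE 0.49, adjusted p = 0.154). *Bcl6*, a transcription factor gene of later thymocytes, gave 1.43 (SE 0.42, adjusted p = 0.169), and *Tox*, needed for CD4 T cell development, 1.01 (SE 0.35, adjusted p = 0.248).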

How the data were processed

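RNA-seq of sorted thymocytes was analysed as deposited. The authors trimmed reads with Trimmomatic 0.36, aligned them to GRCm38 with STAR 2.5.2a, counted genes with RSEM 1.2.31 and divided the counts by a DESeq2 1.18.1 size factor per library; the deposited signal is these normalized reads. Multiplied back, 100% of values were whole within 0.001, and these recovered reads served edgeR 4.0.16 and DESeq2 1.42.0 as alternatives. The main test was limma 3.58.1 (R 4.3.3) on log2(value + 1), with a trend and 1 mean for each of 8 groups over 25 libraries, for genes of mean value at least 10. Genes passed at a Benjamini-Hochberg adjusted p of at most 0.05 over all genes tested. Fold changes on this scale understate those of low genes.

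Named genes were the 12 largest interactions in each direction among called genes of mean at least 100 whose symbol is not that of a predicted gene or clone, and the 3 members of smallest p in each list. Where a called gene falls outside this rule, it was named after its values were seen. Members and lists were chosen with earlier results of these data known. The fits of lane 4 only, and the lists' medians under other settings, were chosen after seeing the data. Symbols, coordinates and promoters came from RefSeq tables (GRCm38.p6). Figures used matplotlib 3.10.9 (Python 3.11.15).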

Additional observations from a re-analysis of the deposited data

Results flagged for a closer look

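The 40 genes in which the change between 3 and 24 hr differed between the genotypes are listed here because the difference itself passed the interaction test (limma, adjusted p of at most 0.05). On the log2 scale it was 4.49 (*Cd83*), 4.23 (*Zbtb7b*), 3.66 (*Ctla2a*), 3.56 (*Rai14*), 3.56 (*Plek*), 3.17 (*Trpa1*), 3.02 (*Has3*), 2.502 (*Trim16*), 1.88 (*Tspan4*), 1.87 (*Cblb*), 1.63 (*Tnfsf11*), 1.49 (*Vav3*), 1.40 (*Inka1*), 1.24 (*Wdr25*), 1.21 (*Ptger4*), 0.77 (*Ncoa4*) and 0.69 (*Ankrd46*) in the 17 genes with a higher interaction.

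In the 23 genes with a lower interaction it was -4.38 (*Col27a1*), -4.35 (*H2-Q2*), -3.50 (*Gzma*), -3.50 (*5830411N06Rik*), -3.24 (*Dock1*), -2.95 (ENSMUSG00000100529), -2.78 (*Akap6*), -2.77 (*Tmprss4*), -2.70 (*Slc16a5*), -2.50 (*Cdr2l*), -2.09 (*Rab11fip4*), -2.04 (*Rasal1*), -1.98 (*Atrnl1*), -1.94 (*Angptl2*), -1.94 (*Tpm4*), -1.86 (*Arl5c*), -1.85 (*Thy1*), -1.70 (*Pou6f1*), -1.70 (*Mical3*), -1.55 (*Sit1*), -1.28 (*Prkcb*), -1.005 (*Tctn3*) and -0.89 (*Galnt12*).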

How the results depend on the processing

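The 40 called genes kept the sign of their interaction under all alternatives that gave a value, and 521 of 749 values outside the fits with 1 library left out kept their call, as did 198 of 480 within them. The number of called interactions moved more. It was 11 in a fit of the 12 libraries only and 3 with lane added to it, 139 (43 higher, 96 lower) with lane added to the fit of 25 libraries, 26 on a common total, 266 (134 higher, 132 lower) with DESeq2, 61 without control replicate 3 at both times, and 4 in lane 4 alone. It was 2 to 271 with 1 library left out. A replicate block gave 20 (8 higher, 12 lower), and same-numbered libraries correlated at -0.20 to 0.05. The labels do not say whether the numbers pair the mice, and these correlations cannot decide it. The causes were not tested. edgeR gave 31 (17 higher, 14 lower). A minimum 2-fold change left 2448 genes called in the step of WNK1-deficient thymocytes and 2968 in that of control thymocytes, and lane 4 alone gave 1667 in WNK1-deficient and 2569 in control thymocytes. All other alternatives kept the total within 1.5 times that of the main setting, although the higher genes numbered 33 without a filter on low values, 26 with a pseudocount of 5 and 8 without control replicate 3 at 3 hr, against 17. Depth limits genes at few reads, such as *Has3*, and 3 mice per group limit every test. Of the 73 named genes that were not called, 28 passed under some alternative.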

Other observations

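Some values stood out beside the comparisons. *Cpa3*, a protease gene of mast cells and early progenitors, was at 43457, 35317 and 33422 at 24 hr in WNK1-deficient thymocytes and 3024, 1255 and 1216 at 3 hr, against 5627, 3749 and 2603 in control thymocytes at 24 hr and 844, 8929.7 and 17174 at 3 hr. Its WNK1-deficient libraries at 24 hr were the highest of the 12, while *Ly6g* and *Mcpt4*, on the same marker list, were at 0 in all 12. Its interaction was 4.89 (SE 1.11, adjusted p = 0.0611), and it passed with lane in the fit of 25 libraries (5.97, adjusted p = 0.0345) and with DESeq2 (5.52, adjusted p = 5.40e-05).

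*BC018473* varied widely within both 24 hr groups, with 8051, 16.8 and 8532 (24 hr) and 24.8, 123 and 13.3 (3 hr) in WNK1-deficient thymocytes, against 2889.6, 2839.6 and 16.5 (24 hr) and 9450.3, 14322 and 17499 (3 hr) in control thymocytes, and its interaction of 9.57 did not pass (adjusted p = 0.329). *Perp*, a p53 target gene, had 243, 216 and 111 (24 hr) and 13.2, 12.9 and 11.8 (3 hr) in WNK1-deficient thymocytes, against 31.2, 34.9 and 11.01 (24 hr) and 0.981, 8.90 and 24.1 (3 hr) in control thymocytes, with an interaction of 2.13 (SE 1.00, adjusted p = 0.474), and its WNK1-deficient libraries at 24 hr were above the other 9. *Acot5*, an acyl-CoA thioesterase gene, was lowest in WNK1-deficient thymocytes at 24 hr, with 2.23, 1.53 and 0 (24 hr) and 83.6, 100.03 and 101 (3 hr) in WNK1-deficient thymocytes, against 46.04, 89.8 and 273 (24 hr) and 311, 132 and 141 (3 hr) in control thymocytes and an interaction of -4.79 (SE 1.10, adjusted p = 0.065).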
